A study of Mus musculus with 2 samples.

Results

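The microRNA genes named Mir297, Mir466, Mir467 and Mir669 form a rodent group of repeat-like hairpins, most of which lie in an intron of Sfmbt2, the gene of a Polycomb protein. Their counts were taken by gene name in the GENCODE M21 annotation, which gave 81 of the 2202 microRNA genes in the tables, 71 on chromosome 2 and 10 elsewhere. The samples were gastrocnemius, the large calf muscle, from adult male B6CASTF1/J mice aged 18 to 20 months, a first-generation hybrid of CAST/EiJ and C57BL/6J mice. The 2 small RNA libraries, with inserts under 30 nt, formed a single group without a treatment, and their labels number them as biological replicates 1 and 2. Each has its own biosample, but both biosamples carry the same donor identifier and it is not said whether they are different mice. The p-values given here set 1 library against the other and take in counting error only, so a difference between these samples can be technical.

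MicroRNAs are cut from hairpin precursors and guide the repression of messenger RNAs that match their seed, the bases near the 5′ end. The Sfmbt2 intron holds one of the largest microRNA clusters of the mouse, made of tandem copies of a few hairpins. Sfmbt2 is imprinted and read from the paternal allele in the early embryo and the placenta, where the cluster is best known. In muscle biology miR-669a is known for acting on the myogenic factor MyoD in cardiac progenitors.

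The depth in assigned counts was 4442692 in replicate 1 and 2156222 in replicate 2, which is 2.06 times less. Reads that mapped to several places, which enter no gene's count, were 73.8% and 70.2% of all reads. Levels are given as CPM, the counts scaled to a library total of 1000000 assigned counts, and 3 counts, taken as the limit that a count of 0 allows, are 0.675 CPM in replicate 1 and 1.39 CPM in replicate 2. That limit covers only reads the authors' counting could place at a single gene. It says nothing of the level of a gene whose whole precursor, or whose mature sequence, has copies. Intervals and limits cover counting error only, since reads amplified by PCR are not independent molecules. Against the muscle label, 9 of 9 skeletal muscle microRNA genes had counts and together took 1.64% and 6.57% of the assigned counts, while the erythroid, liver, epithelial and neural lists took at most 0.0777%. These shares leave out multimapping reads. The neural list, with a count in 1 of 4 genes, is made of genes with copy numbers, so its low share cannot speak for the label. Most of the counted muscle share was Mir206, at a mean of 36675 CPM, followed by Mir486 at 3829 CPM. The rest of that list had means from 3.07 CPM (Mir133a-2) to 295 CPM (Mir499). Mir1a-1, Mir1a-2, Mir133a-1 and Mir133a-2 carry copy numbers, so multimapping reads can be missing from their counts. Their means therefore do not rank them below Mir206 in the muscle, and how many reads are missing was not tested.

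RefSeq (GRCm38.p6) mature sequences were matched for 8 of the 81 members, all outside chromosome 2. They are shown because they let the repeat character of these 8 be read directly. Of the 8 only Mir466q had a count, and the runs are not shown for the members on chromosome 2. Each is given 5′ to 3′ with the seed, bases 2 to 8, in capitals.

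miR-466q: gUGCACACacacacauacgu

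miR-467f: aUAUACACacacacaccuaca

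miR-466i-3p: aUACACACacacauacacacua

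miR-467g: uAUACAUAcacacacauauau

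miR-466k: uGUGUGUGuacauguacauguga

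miR-669n: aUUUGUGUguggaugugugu

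miR-467h: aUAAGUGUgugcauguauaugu

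miR-466j: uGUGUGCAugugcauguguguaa

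The 4 sequences listed first held a run of 9 to 12 alternating C and A, and the other 4 a run of 7 to 9 alternating G and U. Runs of at least 7 such bases, a length set after these sequences were seen, occurred in 19 of 1738 RefSeq mature sequences (1.09%), these 8 included. The 8 had 8 different seeds, so no seed was shared among them. Over all 81 precursors, the dinucleotides GT, TG, CA and AC made up a median of 51.2% of the dinucleotides, against 27.0% over all 2202 microRNA genes. That median was 51.2% for the members on chromosome 2 and 55.4% for those elsewhere. The median GC content of all 81 was 36.5%, against 50.8% over all microRNA genes.

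All 71 members on chromosome 2 lay on the strand of Sfmbt2 and inside a single intron of it, from 10461473 to 10523944 (mm10, plus strand), between exons 11 and 12 of the transcript ENSMUST00000116594.8. They spanned 51.6 kb of the 62.5 kb of that intron. Of the 10 members elsewhere, Mir466q lay in an intron of Tnik on its strand, 5 lay in introns of genes on the opposite strand and 4 were intergenic.

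Most members had no count. A count in either library was found for 10 of 81, where 29.2% of all microRNA genes had one, and 5 of 81 reached 2 CPM in both libraries, where 14.7% of all did. The members together held 908 counts in replicate 1, or 204 CPM (Wilson 95% interval 192 to 218), and 680 counts in replicate 2, or 315 CPM (293 to 340). Their mean was 260 ± 78.5 CPM (SD, n = 2), or 0.0260% of assigned counts. All but 4 of these 1588 counts belonged to chromosome 2. No read was counted on the strand opposite to a member.

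The counts were divided unequally among the families. Mir467 had counts in 3 of 17 genes and held 209 ± 58.2 CPM, and Mir669 had counts in 5 of 30 genes and held 50.4 ± 20.6 CPM (SD, n = 2). Mir466, with 28 genes, had 2 counted genes and 5 counts in all. None of the 6 Mir297 genes had a count. All 10 counted members had names without a copy number, from 36 such names, and the 45 numbered members, such as the Mir467a and Mir669a series, had none.

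**Figure D1:**
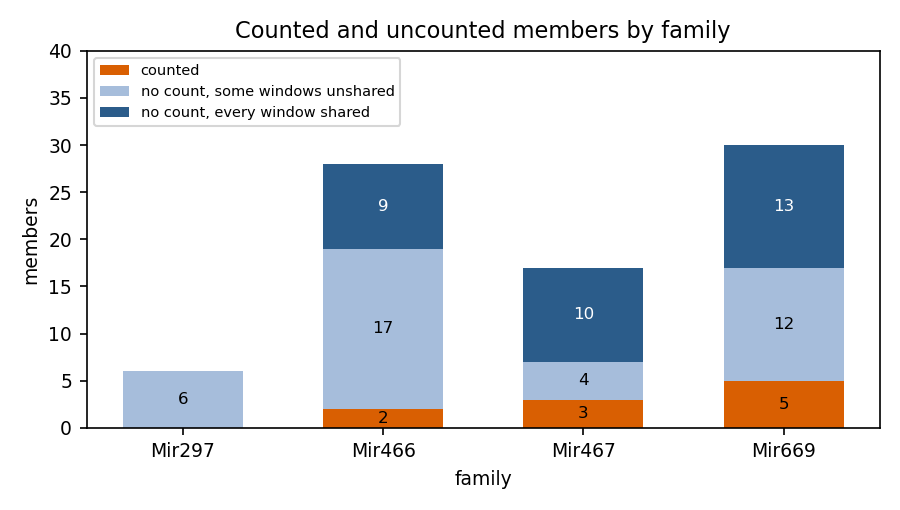
Number of members in each family (bars), split into members with a count in either library, members with no count whose precursor has some 20-base windows found in no other microRNA gene, and members with no count whose windows are all shared. The counted part is 0 of 6 for Mir297, 2 of 28 for Mir466, 3 of 17 for Mir467 and 5 of 30 for Mir669.

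Of the reads placed at a single gene, Mir467d had the most among the members. The 32 members whose windows are all shared, described below, cannot be ranked against it. Nor can any other member whose mature sequence has copies, and which these are on chromosome 2 is not known. Mir467d had 435 counts in replicate 1 and 340 in replicate 2, or 97.9 and 158 CPM, and took 47.9% and 50% of all member counts. Its rank among the 2202 genes was 134 and 107. The gene (ENSMUSG00000077021.2) lies on chromosome 2 from 10507630 to 10507714.

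Mir467e lies 1822 bases upstream of Mir467d, from 10505721 to 10505807. It had 268 and 170 counts, or 60.3 and 78.8 CPM, the second highest counted level of the group in both libraries. Mir467c, the third counted gene of its family, lies apart from them, from 10473931 to 10474027, with 42 and 29 counts, or 9.45 and 13.4 CPM. These 3 genes were the ones with counts among the 14 Mir467 genes of the intron.

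In the Mir669 family Mir669o (10514300 to 10514395) led with 86 and 72 counts, or 19.4 and 33.4 CPM. Mir669c (10509296 to 10509404) had 65 and 45 counts, or 14.6 and 20.9 CPM. Mir669l (10468971 to 10469068) had 7 and 13 counts, or 1.58 and 6.03 CPM, so it reached 2 CPM in replicate 2 only. Mir669e had 1 and 8 counts, and Mir669h had 0 and 2.

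In the Mir466 family Mir466q, the only member outside chromosome 2 with a count, had 3 and 1 counts. Mir466n, in the Sfmbt2 intron, had 1 and 0. Both lay below 2 CPM in each library.

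**Figure D2:**
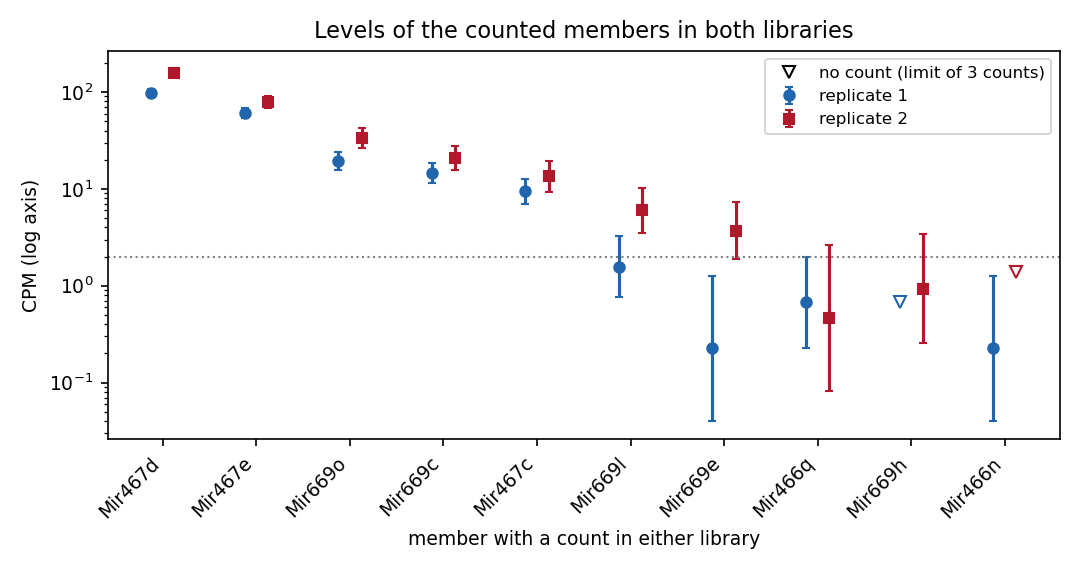
CPM (log axis) of the 10 members with a count, in replicate 1 (circles) and replicate 2 (squares), with Wilson 95% intervals; open triangles mark a library with no count at the level of 3 counts, and the dotted line is 2 CPM. Levels fall from Mir467d at 97.9 and 158 CPM to members with 1 or 2 counts, and the 5 genes from Mir467d to Mir467c lie above the line in both libraries.

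The 6 members with 10 or more counts stood in the same order in both libraries, Mir467d, Mir467e, Mir669o, Mir669c, Mir467c and Mir669l. The order of their mean levels was also the same per 100 bases of precursor, from 150 CPM for Mir467d to 3.88 CPM for Mir669l. Their precursors, of 85 to 109 bases, were too alike in length for this to change the order. Mir669o was above Mir669c by 1.32 times in replicate 1 and 1.6 times in replicate 2, with counting intervals that overlapped in both. Whether these genes differ was not tested. Within each library the counting intervals of Mir669c and Mir467c also overlapped. Mir467d was above Mir467e by 1.62 times in replicate 1 and 2 times in replicate 2, with counting intervals apart in both. Of the 20-base windows, 41 of 66 were shared for Mir467d, 29 of 68 for Mir467e and 17 of 90 for Mir669c. The order is one of reads placed at a single gene, and the part of shared sequence in it was not tested.

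Along the intron, counts came from the first and last parts of the cluster. Split into 3 equal parts of 17.2 kb, the span of the members held 28, 19 and 24 of them. The first part had 50 counts in each library, from Mir467c, Mir669l and Mir669e. The middle part had no count, and 18 of its 19 members had precursors made up wholly of sequence found in other microRNA genes. The last part had 855 and 629 counts from 6 members, among them Mir467d, Mir467e, Mir669c and Mir669o.

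**Figure D3:**
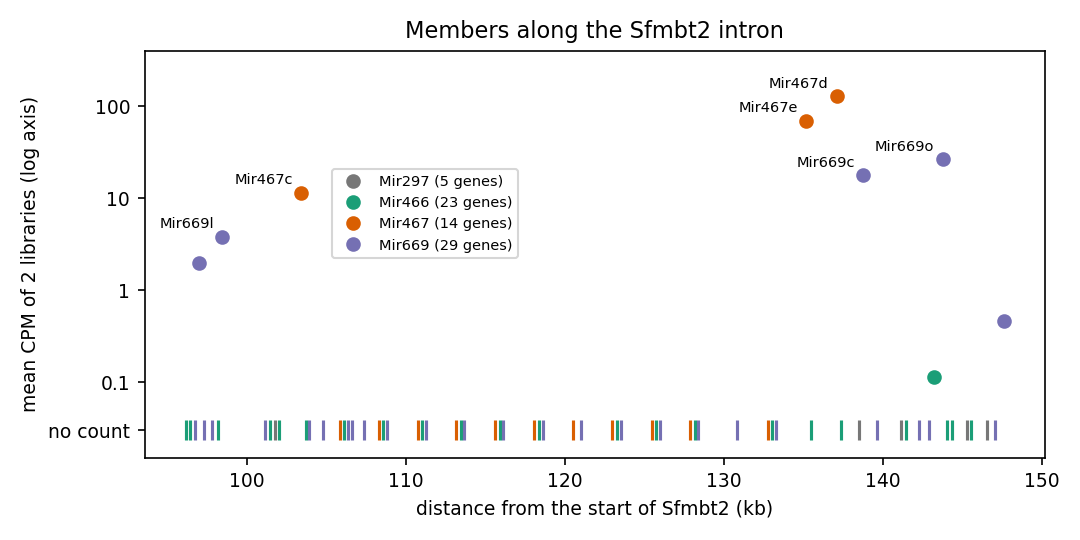
Mean CPM of both libraries (log axis) for the 71 members of the Sfmbt2 intron against distance from the start of Sfmbt2 in kb, coloured by family; ticks at the bottom are members with no count. Mir467d and Mir467e stand at 137 and 135 kb, Mir467c at 103 kb, with no counted member between Mir467c and Mir467e.

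How far the precursors can be told apart was measured in windows of 20 bases, each looked up in all microRNA genes at other loci. Of 81 members, 79 shared at least 1 window with another gene, and 32 shared every window. The 32 were 10 of the 14 Mir467 genes, 9 of the 23 Mir466 genes and 13 of the 29 Mir669 genes of the intron. None of the 32 had a count. Among all 2202 microRNA genes, 300 shared every window and 4 of these (1.33%) had a count, while 639 of the other 1902 (33.6%) did.

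Of the 49 members with some window of their own, 10 had a count (20.4%). The 6 members with 10 or more counts had 25 to 73 such windows each, and 18.9% to 62.1% of their windows were shared. Mir467d was the one with the fewest, 25 of 66, and shared a stretch of 60 bases with 9 Mir467a genes. Mir467e and Mir467c shared 48 bases with each other, Mir669o shared 38 bases with 11 Mir669a genes, and Mir669c shared 36 bases with Mir669a-3.

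Some members with windows of their own had no count. Mir466g, in the intron, and Mir669n, elsewhere, shared no window with any microRNA gene and had no count. Mir669b, Mir466h and Mir466l, in the intron, and Mir466j and Mir466f-4, elsewhere, had no count with at most 14.7% of windows shared. These members were picked after their values were seen. The 39 members with windows of their own and no count had 11 to 92 windows of their own, with a median of 28 against 39.5 for the 10 with a count. Only sequence shared with microRNA genes was searched, not the rest of the genome. Windows were taken over the whole precursor, so a window of its own need not lie in the mature sequence. For each count of a member, replicate 1 had 23059 multimapping reads in all and replicate 2 had 11219, and how many of them came from these genes was not tested.

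**Figure D4:**
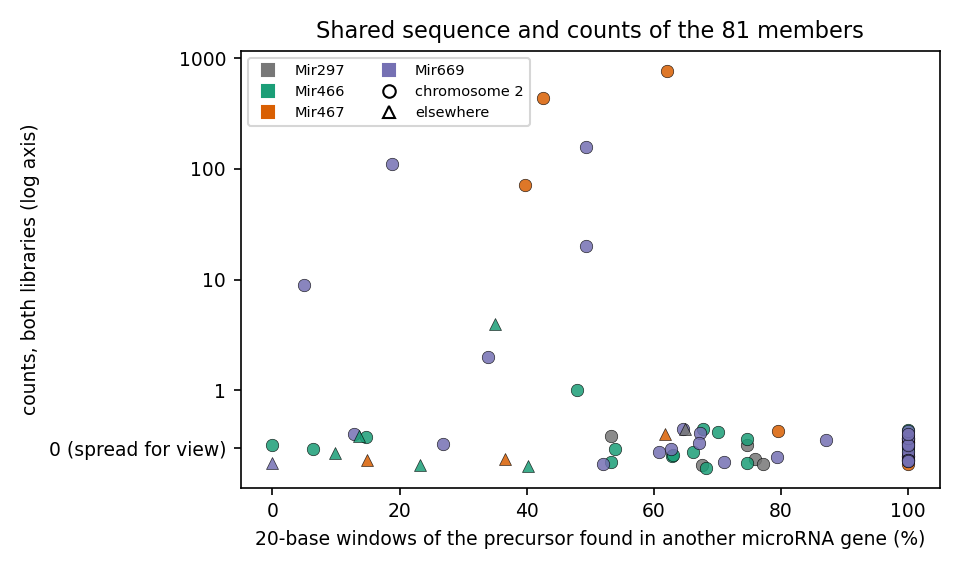
Counts summed over both libraries (log axis, members at 0 spread for view) against the percent of 20-base windows of the precursor that occur in another microRNA gene, for 71 members on chromosome 2 (circles) and 10 elsewhere (triangles), coloured by family. All 10 counted members lie at 62.1% or less, and the 32 members at 100% have no count.

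The whole Sfmbt2 gene holds, on its strand, 48 further microRNA genes that carry only a gene model name. These were the other genes listed for comparison. Of the 48, only Gm22239 had a count, 1 in each library, and 22 shared every window with another gene. The Mir379 to Mir410 array of chromosome 12, another large imprinted cluster, had counts in 34 of 38 genes and held 1619 ± 414 CPM (SD, n = 2). None of its 38 precursors was wholly shared and 33 shared no window.

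Replicate 2 was compared with replicate 1 to see how far the members differed between samples with the same labels. The test compares these 2 libraries, not conditions. Of 81 members 6 had the 10 or more counts needed for the test, where 17.3% of all microRNA genes had them. Of the 6, 4 passed the exact binomial test at an adjusted p of 0.05, where 61.8% of the 380 microRNA genes tested were. All 4 were higher in replicate 2, so 4 of 6 tested members passed in that direction, where 30.3% of all genes tested did. The difference between these shares was not tested.

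Mir467d had a log2 ratio of replicate 2 over replicate 1 of 0.77 (95% counting interval 0.57 to 0.99, adjusted p = 7.4e-13, exact binomial test). The log2 ratio was 0.85 for Mir669o (0.41 to 1.35, adjusted p = 0.00045, exact binomial test) and 0.47 for Mir467e (0.19 to 0.76, adjusted p = 0.0017, exact binomial test). With every gene that had 1 count or more tested, the adjusted p of Mir467e was 0.056 and it did not pass. Mir669l stood at 1.52 (0.60 to 3.59, adjusted p = 0.0049, exact binomial test) on 7 and 13 counts. With 5 CPM added in place of 1 CPM its ratio was 0.78.

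Mir669c and Mir467c did not pass, at log2 ratios of 0.57 and 0.55 with adjusted p of 0.060 and 0.14 in the exact binomial test. With genes of 20 or more counts tested, Mir669c passed at an adjusted p of 0.026. The median log2 ratio of the 6 was 0.67, against 0.02 over the 380 genes tested, whose 75th percentile was 0.57. The members' counts summed gave 0.72 (0.57 to 0.86), or 1.65 times as much in replicate 2. The depth of the libraries and the share of multimapping reads differed as well, and their part in this was not tested.

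**Figure D5:**
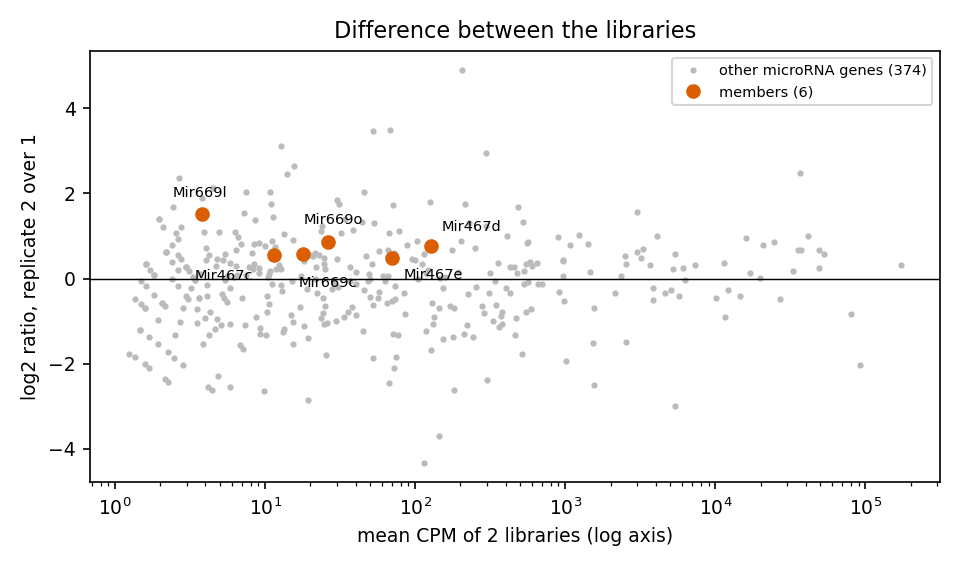
Log2 ratio of replicate 2 over replicate 1 (TMM-scaled CPM + 1) against mean CPM (log axis) for the 380 microRNA genes tested, with the 6 members in colour. The 6 lie between 0.47 and 1.52, all above 0, within the cloud of the other 374 genes.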

How the data were processed

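Each library has 1 deposited table of unnormalized counts per microRNA gene. Its readme names mm10 and GENCODE M21, while aligner, trimming and counter were not given in the sources used here. The authors' tables hold 3 count columns, which the values show to be without strand, sense and antisense, and the sense counts were used. Reads not assigned to a gene, most of them multimapping, were 84.3% and 80.2% of all and stayed out of library sizes. Shares have Wilson 95% intervals. Genes with 10 or more summed counts (380) entered an exact two-sided binomial test given edgeR TMM-scaled library sizes, adjusted by Benjamini-Hochberg at 0.05. Ratios used CPM + 1, and their 95% intervals (Clopper-Pearson, exact) rest on the counts alone. Precursor sequences of GENCODE M21 were compared in 20-base windows, same strand, loci that overlap left out. Named were members with 10 or more counts and the 5 highest on chromosome 2 and elsewhere. Others named were chosen after their values were seen. Members and lists were chosen with earlier results of these data known. The binomial test was tested on simulated data, which held counting error only, as the test itself assumes. That cannot show how it behaves where libraries differ in other ways. Tools were R 4.3.3, edgeR 4.0.16, DESeq2 1.42.0 and Python 3.11.15 with scipy 1.17.1.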

Additional observations from a re-analysis of the deposited data

How the results depend on the processing

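No paired analysis was possible because the labels give 1 group. The members' share of assigned counts, 0.0260%, was 0.0204% and 0.0315% with either library alone. It was 0.0359% with counts without strand, where the members' counts were the same and the totals fell to 3149921 and 1579475. As a share of all reads it was 0.00473%. With members sharing 20 bases left out it was 0%, and 0 members were detected, since the 2 that remain had no count. Detection of 5 members became 8 with any count in both libraries as the criterion, and 5 and 7 with either library alone. The 32 wholly shared members were also 32 with windows of 18 or 24 bases, chosen after seeing the data, and the 10 counted members were 9 with either library alone. Under plain totals and DESeq2 size factors, all 12 log2 ratios of the 6 tested members kept direction and side of the threshold. Other pseudocounts change only the size of a ratio, not its test. The summed ratio was 0.63 with plain totals and 0.68 with DESeq2 size factors. The count of members past the threshold stayed between 4 and 5 under other count minimums, but not with the same genes, since Mir467e was lost at 1 count, Mir669e entered at 1 and 5 counts, and Mir669c at 20. The TMM shift against plain totals was 0.05 at 1 count, −0.09 at 10 and −0.16 at 20. Depth limits what a count of 0 can show to 0.675 and 1.39 CPM of reads placed at a single gene. For the 32 wholly shared members it sets no limit on their level. Nor does it where only the mature sequence has copies, as for miR-467h, whose precursor had windows of its own. Which members on chromosome 2 this holds for is not known, since no mature sequence was matched for them.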

Other observations

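The 4 microRNA genes with a count and a wholly shared precursor were Gm23935, with 35 and 31 counts, Gm24270, with 20 and 27, Gm47295, with 15 and 1, and Gm24245, with 0 and 1. None of them belongs to the Mir297, Mir466, Mir467 or Mir669 families. The mature sequence of miR-467h, a member on chromosome 9 with no count, occurred whole in 2 other precursors.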
